A study of Homo sapiens with 9 samples.

Results

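The 5 ligands of the epidermal growth factor receptor (EGFR) AREG, EREG, BTC, TGFA and HBEGF and the 2 membrane proteases that release such ligands, ADAM10 and ADAM17, were followed in the colorectal cancer cell line LIM1215. The members were chosen by name, with earlier results of these data known, and read from the count of each gene symbol in every library. They are 7 of the 58920 genes listed, and all 7 had enough reads to be among the 19102 genes tested. LIM1215-parental cells were compared with LIM1215-R1 and LIM1215-R2 (R1 and R2 below), populations selected in parallel for 6 months in rising concentrations of cetuximab, an antibody that blocks ligand binding to EGFR. Both resistant lines are mixed populations and not clones, and the parental line was kept in culture alongside them. RNA was taken from untreated cells of all 3 lines, grown in RPMI with serum, and 3 libraries were sequenced per line, 9 in all. After selection the study maintained the resistant lines in cetuximab and withdrew it before drug treatments. How long they were without it before RNA isolation is not stated. The study calls the replicates technical, so every p-value below describes the spread between these libraries and not that between independent selections or cultures.

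EGFR ligands are made as precursors anchored in the plasma membrane, and a protease has to cut the stalk outside the membrane before the growth factor can diffuse to a receptor. ADAM17 is the main sheddase of AREG, EREG, TGFA and HBEGF, and ADAM10 that of BTC. AREG and TGFA bind EGFR, whereas BTC, EREG and HBEGF also bind ERBB4. The iRhom proteins bring ADAM17 to the cell surface, tetraspanins of the C8 group do so for ADAM10, proprotein convertases remove the inhibitory prodomain of both, and tissue inhibitors of metalloproteinases (TIMPs) block their active site. In colorectal cancer, the levels of AREG and EREG transcripts are known as markers of dependence on EGFR and have been studied as predictors of benefit from cetuximab.

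AREG, EREG and BTC lie in a row on chromosome 4. In the RefSeq annotation of GRCh38.p14, EREG spans chr4:74365145-74388749 and AREG chr4:74445136-74455005, both on the plus strand, and BTC spans chr4:74744759-74794523 on the minus strand. A gap of 56.4 kb separates EREG from AREG, and one of 289.8 kb separates AREG from BTC. The other members are on other chromosomes, all on the minus strand. TGFA is at chr2:70447284-70553826, HBEGF at chr5:140332843-140346603, ADAM10 at chr15:58588809-58749707 and ADAM17 at chr2:9488486-9555830.

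The 250 bases before the transcription start are printed for the 3 neighbouring ligand genes, because these had the largest differences among the members. They are RefSeq sequences of GRCh38.p14, written 5′ to 3′ on the strand of the gene, and the last base is the one just before the start. Capitals mark a cAMP response element (TGACGTCA) or a TATA box (TATAAA). AREG is at chr4:74444886-74445135 on the plus strand, EREG at chr4:74364895-74365144 on the plus strand and BTC at chr4:74794524-74794773 on the minus strand.
AREG: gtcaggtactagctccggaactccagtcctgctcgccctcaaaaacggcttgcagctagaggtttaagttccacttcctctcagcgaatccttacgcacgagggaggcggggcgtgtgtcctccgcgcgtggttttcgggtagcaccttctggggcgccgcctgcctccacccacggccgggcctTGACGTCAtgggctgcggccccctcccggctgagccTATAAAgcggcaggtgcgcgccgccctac
EREG: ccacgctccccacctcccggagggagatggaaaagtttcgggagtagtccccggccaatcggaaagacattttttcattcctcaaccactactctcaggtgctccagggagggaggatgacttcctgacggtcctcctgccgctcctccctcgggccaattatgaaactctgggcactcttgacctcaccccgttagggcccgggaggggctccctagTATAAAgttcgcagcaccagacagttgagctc
BTC: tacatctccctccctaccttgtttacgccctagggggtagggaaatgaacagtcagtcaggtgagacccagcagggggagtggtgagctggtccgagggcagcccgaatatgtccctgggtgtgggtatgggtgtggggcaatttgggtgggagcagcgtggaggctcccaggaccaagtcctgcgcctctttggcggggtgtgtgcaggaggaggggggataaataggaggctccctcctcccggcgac

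In AREG the cAMP response element, the site bound by CREB family factors, covered bases 65 to 58 before the start, and a TATA box covered bases 29 to 24. EREG had a TATA box at bases 32 to 27 and no cAMP response element. The BTC window held neither. Both strands were searched, also for the AP-1 site TGAGTCA and the Sp1 site GGGCGG, and no match overlapped that of another motif. No member's window held the AP-1 letters, whereas the Sp1 letters were present in AREG, TGFA, HBEGF, ADAM10 and ADAM17. Of 35116 RefSeq promoters cut to the same length, 1.65% held the cAMP response element, 4.2% the AP-1 site, 10.7% the TATA box and 42.6% the Sp1 site. A match describes letters and not binding, and a window without one says nothing on the factor.

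Total counts per library ranged from 13737416 to 18725014, and 3 counts, the limit that a count of 0 allows, corresponded to 0.160 to 0.218 CPM, the count of a gene scaled to a library of 1000000 counts. This limit covers counting error only. CPM values below were scaled with edgeR's TMM factors, which ranged from 0.984 to 1.02. Of 7 epithelial marker genes, 6 were detected in every library (EPCAM, CDH1, KRT8, KRT18, CDX2 and VIL1), with a summed level of 11622 to 12001 CPM in parental cells, 15099 to 15358 CPM in R1 and 13655 to 14060 CPM in R2. KRT20 had 0 counts in all 9. The 7 markers of blood, endothelial, fibroblast and muscle cells summed to 2.42 to 4.04, 2.50 to 3.01 and 1.63 to 2.91 CPM in these lines, with PTPRC and COL1A2 at 0.

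Resistant cells had more RNA of 4 of the 5 ligands and less of both sheddases. The populations are mixed, and in bulk RNA a change per cell cannot be told apart from a change in the share of cells that express a gene. In R1 against parental cells, AREG, EREG, BTC and TGFA were higher and ADAM10 and ADAM17 lower at an adjusted p of at most 0.01 (quasi-likelihood test of edgeR, with p-values adjusted by Benjamini and Hochberg's method across the whole table). These 6 of 7 members stand beside 27.3% of all genes tested that passed the same threshold, 14.0% higher and 13.4% lower. The members were chosen with earlier results of these data known, and each had a mean of at least 5 CPM. All genes tested include some with as few as 10 counts over the 9 libraries, which pass less easily. In R2 against parental cells the same split of 4 higher and 2 lower members was found, where 23.8% of all genes passed, 12.3% higher and 11.6% lower. Both comparisons use the same 3 parental libraries and are therefore not independent of each other. AREG and EREG alone also had a log2 fold change of at least 1.5 and were differentially expressed genes (DEGs) by the study's thresholds, in both lines, beside 5.14% of all genes in R1 and 4.82% in R2. HBEGF passed in neither line. In each line the 6 called members were also those whose resistant and parental libraries did not overlap, as held for 44.0% of all genes in R1 and 42.8% in R2.

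**Figure D1:**
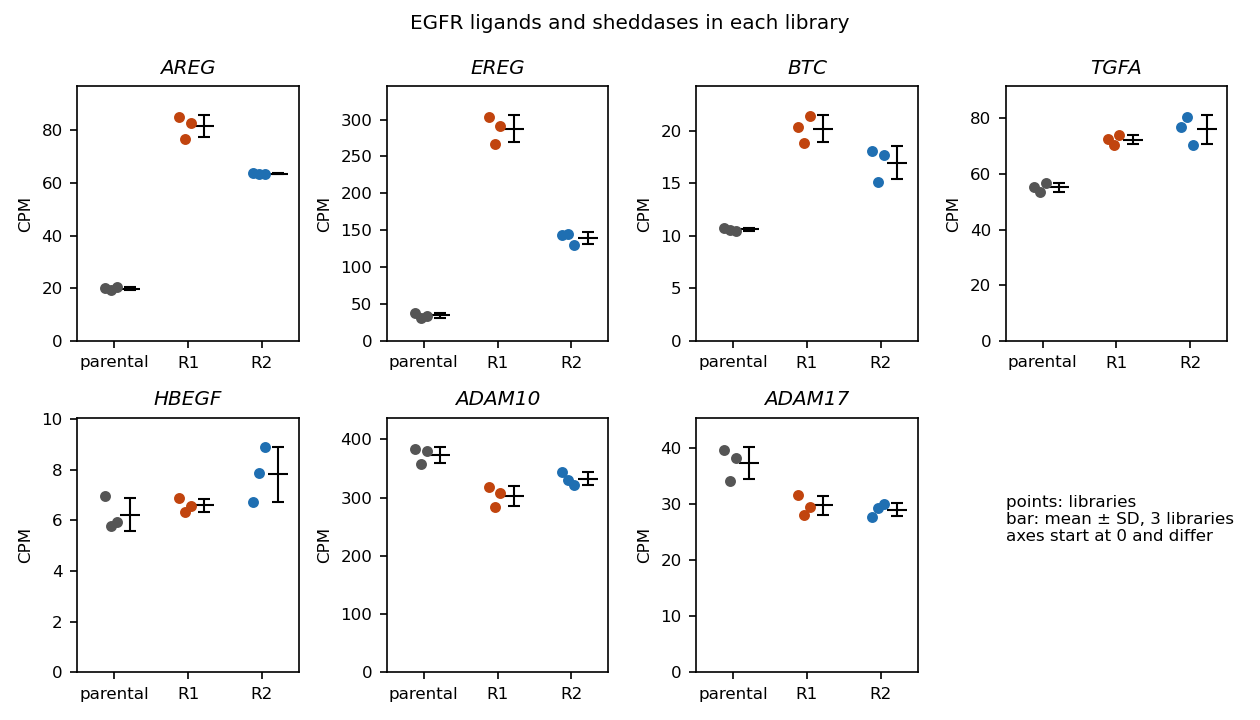
Level of each member in CPM (vertical axis, starting at 0, with its own scale per gene) in the 3 libraries of parental, R1 and R2 cells; points are libraries and the bar beside them is mean ± SD. EREG rises from 34.4 to 287 and 139 CPM, while ADAM10 falls from 374 to 303 and 333 CPM.

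EREG, which encodes epiregulin, had the largest difference of the members. Its level was 38.3, 31.6 and 33.3 CPM in the parental libraries, 303, 267 and 291 CPM in R1 and 143, 145 and 130 CPM in R2. No 2 of the 3 ranges overlapped, with R2 between the other lines. EREG was 8.33-fold higher in R1 (log2 fold change 3.06 ± 0.07 (SE), adjusted p = 1.05e-22, edgeR) and 4.04-fold higher in R2 (2.01 ± 0.07, adjusted p = 4.92e-19, edgeR). A larger log2 fold change than that of EREG was found for 1.91% of all genes tested in R1 and for 3.42% in R2.

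AREG encodes amphiregulin. The parental libraries gave 20.0, 19.2 and 20.4 CPM, those of R1 84.9, 76.8 and 82.6 CPM, and those of R2 63.7, 63.5 and 63.2 CPM. As for EREG, the ranges of the lines lay apart in the order parental, R2, R1. The difference from parental cells was 4.09-fold in R1 (log2 fold change 2.03 ± 0.07, adjusted p = 2.65e-19, edgeR) and 3.19-fold in R2 (1.67 ± 0.07, adjusted p = 2.42e-17, edgeR). These log2 fold changes were exceeded by 3.77% and 4.55% of all genes tested.

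BTC encodes betacellulin. Its RNA stood at 10.8, 10.5 and 10.5 CPM in parental cells, 20.4, 18.8 and 21.4 CPM in R1 and 18.1, 15.2 and 17.7 CPM in R2. All resistant libraries were above all parental ones. BTC rose 1.90-fold in R1 (0.93 ± 0.10 on the log2 scale, adjusted p = 1.29e-08, edgeR) and 1.60-fold in R2 (0.68 ± 0.10, adjusted p = 3.72e-06, edgeR).

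TGFA, the gene of transforming growth factor alpha, moved less. It gave 55.3, 53.6 and 56.7 CPM in parental cells, 72.4, 70.6 and 73.9 CPM in R1 and 77.1, 80.5 and 70.5 CPM in R2. The resistant ranges overlapped each other and lay above that of parental cells. TGFA was 30.9% higher in R1 (log2 fold change 0.39 ± 0.06, adjusted p = 7.63e-06, edgeR) and 37.7% higher in R2 (0.46 ± 0.06, adjusted p = 4.94e-07, edgeR).

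HBEGF, which encodes a heparin-binding ligand, was the lowest of the ligands per length and had only 80 to 136 counts per library. Its level was 6.96, 5.78 and 5.93 CPM in parental cells, 6.87, 6.34 and 6.57 CPM in R1 and 6.72, 7.86 and 8.88 CPM in R2. The ranges of all 3 lines overlapped. The log2 fold change was 0.08 in R1 (95% confidence interval -0.21 to 0.37, adjusted p = 0.717, edgeR) and 0.32 in R2 (0.04 to 0.60, adjusted p = 0.0716, edgeR), so a difference of the size seen for TGFA was not excluded in R2 at this depth.

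Of the sheddases, ADAM10 gave 383, 358 and 380 CPM in parental cells, 318, 283 and 308 CPM in R1 and 345, 331 and 323 CPM in R2. Every parental library was above every resistant one. ADAM10 fell by 19.0% in R1 (log2 fold change -0.30 ± 0.05, adjusted p = 6.91e-06, edgeR), and parental cells were 1.12-fold above R2 (-0.17 ± 0.05, adjusted p = 0.00572, edgeR). The second of these calls was lost on leaving out parental replicate 1 (adjusted p = 0.0353) or 3 (0.0301), R1 replicate 3 (0.0109), or R2 replicate 2 (0.031) or 3 (0.0357), with the log2 fold change between -0.20 and -0.15 throughout.

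ADAM17, also known as TACE, had 39.7, 34.1 and 38.2 CPM in parental cells, 31.6, 28.2 and 29.6 CPM in R1 and 27.8, 29.3 and 30.0 CPM in R2. Here too all parental libraries were above the resistant ones, and the resistant lines overlapped. ADAM17 fell by 20.4% in R1 (-0.33 ± 0.08 on the log2 scale, adjusted p = 0.000954, edgeR) and by 22.5% in R2 (-0.37 ± 0.08, adjusted p = 0.00032, edgeR). Without parental replicate 1 the first of these was -0.28 with an adjusted p of 0.0105. On the other strand IAH1 overlaps 1323 bases, or 30.1%, of the reference transcript of ADAM17. Reads were counted by strand, and IAH1 itself had log2 fold changes of -0.14 (adjusted p = 0.125, edgeR) and -0.20 (adjusted p = 0.0323, edgeR). Its part in the ADAM17 values was not tested.

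**Figure D2:**
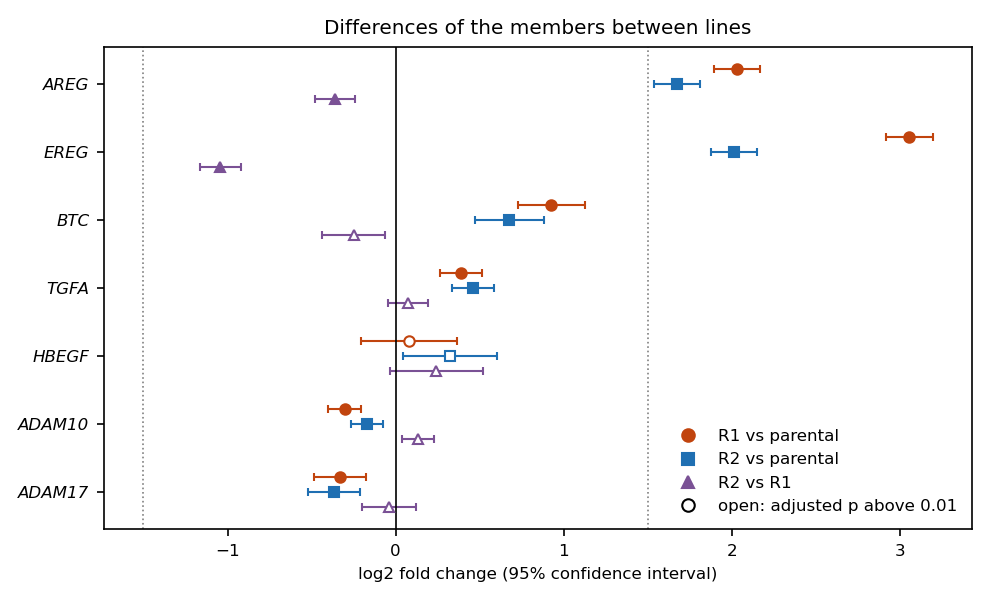
Log2 fold change of each member with its 95% confidence interval (horizontal axis) for R1 and R2 cells, each against parental cells, and for R2 against R1; filled symbols have an adjusted p of at most 0.01, and dotted lines mark a log2 fold change of 1.5 in either direction. AREG and EREG are past the dotted line against parental cells, at 1.67 to 3.06, while the sheddases lie between -0.37 and -0.17.

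The resistant lines were also compared directly. EREG fell by 1.04 on the log2 scale in R2 against R1 (SE 0.06, adjusted p = 6.04e-13, edgeR), a level 2.06-fold higher in R1. AREG fell by 0.36 (SE 0.06, adjusted p = 7.24e-05, edgeR), a level 1.28-fold higher in R1. These were 2 of 7 members, beside 7.16% of all genes tested that passed between the resistant lines, 3.39% higher and 3.77% lower in R2. Neither reached the DEG threshold, which 0.764% of all genes did.

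For the other 5 members no call was made between the resistant lines. BTC was at -0.25 ± 0.09 (adjusted p = 0.0754, edgeR) and ADAM10 at 0.14 ± 0.05 (adjusted p = 0.0563, edgeR). The libraries of the resistant lines did not overlap for either gene, nor for AREG and EREG, as was the case for 28.0% of all genes tested. TGFA differed by 0.07 (adjusted p = 0.494, edgeR), HBEGF by 0.24 (adjusted p = 0.282, edgeR) and ADAM17 by -0.04 (adjusted p = 0.819, edgeR), with overlapping ranges.

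To compare levels between genes, CPM were divided by the length of the MANE Select transcript, which is 1234 bases for AREG, 4615 for EREG, 2653 for BTC, 4117 for TGFA, 2358 for HBEGF, 11158 for ADAM10 and 4391 for ADAM17. In parental cells the order was ADAM10 (33.5 CPM per kb), AREG (16.1), TGFA (13.4), ADAM17 (8.50), EREG (7.46), BTC (3.96 to 4.07) and HBEGF (2.64), and only ADAM17 and EREG overlapped. In R1 both AREG, at 66.0 CPM per kb, and EREG, at 62.3, stood above ADAM10, at 27.2. The ranges of AREG and EREG overlapped there, although AREG was above EREG in each of the 3 libraries at this length. TGFA followed at 17.6, and BTC (7.61), ADAM17 (6.79) and HBEGF (2.80) came last, with BTC and ADAM17 overlapping.

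In R2 AREG led with 51.4 CPM per kb, and EREG (30.2) and ADAM10 (29.8) overlapped below it. TGFA was at 18.5, ADAM17 at 6.61, BTC at 6.40 and HBEGF at 3.32, and only ADAM17 and BTC overlapped among these. The order depends on the length used. With the union of all annotated exons in its place, a setting added after the data had been seen, EREG was above AREG in all 3 libraries of R1 (means of 50.3 and 49.6 CPM per kb), and ADAM17, whose union is 15964 bases long, was at 2.34, 1.87 and 1.82 CPM per kb in parental, R1 and R2 cells. Per transcript of this length, ADAM17 was last in both resistant lines.

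The 5 ligands together amounted to 43.6 ± 1.59 CPM per kb (SD, n = 3) in parental cells, 156 ± 8.14 in R1 and 109.8 ± 2.43 in R2. The makeup of this sum differed as well. TGFA was 30.7% ± 0.77 of it in parental cells, 11.3% ± 0.42 in R1 and 16.8% ± 0.77 in R2, although its own level was higher in the resistant lines. EREG made up 17.1% ± 1.20, 39.8% ± 0.51 and 27.5% ± 0.96, and AREG 36.9% ± 0.81, 42.2% ± 0.10 and 46.8% ± 0.89. AREG and EREG together took 54.0% of the ligand sum in parental cells, 82.1% in R1 and 74.3% in R2.

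The ratio of AREG to EREG per length was 2.17 ± 0.19 in parental cells, 1.06 ± 0.01 in R1 and 1.71 ± 0.09 in R2, and the 3 ranges did not overlap. For the sheddases the ratio of ADAM10 to ADAM17 was 3.80 to 4.14, 3.95 to 4.10 and 4.23 to 4.89, where parental and R1 libraries overlapped and those of R2 were above both. With the union of exons the ratio of AREG to EREG in R1 was 0.974 to 0.999, and that of ADAM10 to ADAM17 lay between 9.64 and 12.4 in all 9 libraries. No test was run on these sums and ratios. They describe RNA, and neither the precursor proteins nor the shed ligands were measured here.

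**Figure D3:**
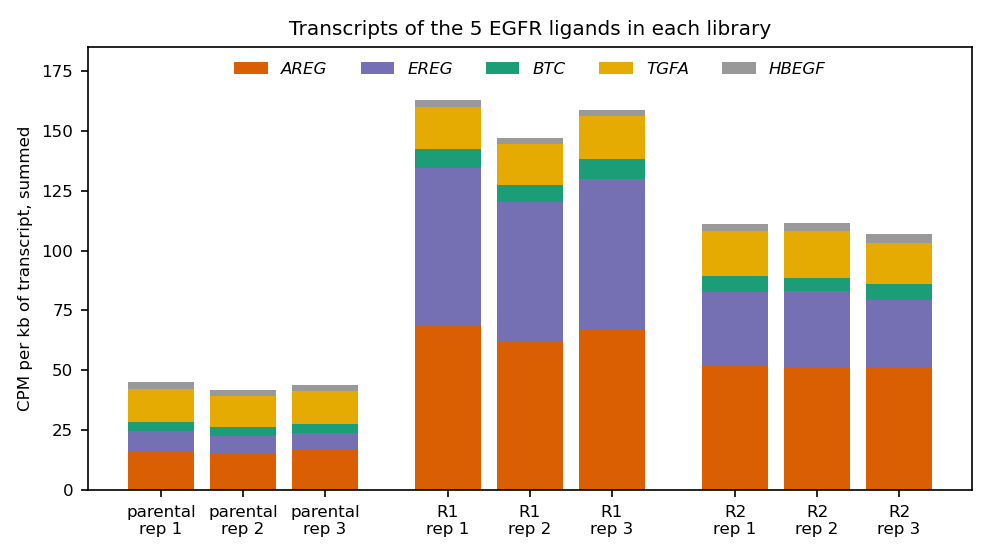
Transcripts of the 5 ligands in each library, stacked, in CPM per kb of MANE Select transcript (vertical axis, starting at 0), with the 3 libraries of each line side by side. The total is 41.9 to 45.0 in parental, 147 to 163 in R1 and 107 to 112 in R2 libraries, and the AREG and EREG segments account for most of the difference.

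Other genes of the pathway were taken from lists of 42 genes, of which 32 were tested. In R1 against parental cells 8 were higher and 6 lower, in R2 7 were higher and 4 lower, and their median log2 fold changes were 0.04 and -0.09, against -0.01 and -0.0037 for all genes tested. Over all genes tested 27.3% and 23.8% passed in these comparisons, so 14 and 11 of 32 are to be read beside those shares. Between the resistant lines 4 of 32 passed, beside 7.16% of all genes, EGFR being higher in R2 and TSPAN33, TIMP1 and TIMP3 lower. This last count depended on single libraries. It was 7 without parental replicate 2 and 2 without R1 replicate 2, R1 replicate 3, R2 replicate 1 or R2 replicate 2.

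Ligands outside the members were near or at the detection limit. EGF had 10 counts over the 3 parental libraries, 10 over those of R1 and 5 over those of R2. EPGN, the neighbour of EREG, had 9, 3 and 7 counts, and NRG1 had 6, 15 and 1, and none of these passed the test. NRG2 had 2 counts in all, NRG4 1 and NRG3 0.

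Of the 4 ERBB receptor genes 3 were tested. All 3 were lower in R1 and 2 of the 3 in R2, beside 13.4% and 11.6% of all genes tested. ERBB3, the kinase-impaired partner receptor, fell from 413, 402 and 403 CPM in parental cells to 235, 220 and 223 CPM in R1 and 256, 247 and 243 CPM in R2. Its log2 fold changes were -0.84 ± 0.04 (adjusted p = 4.44e-15, edgeR) and -0.71 ± 0.04 (adjusted p = 1.86e-13, edgeR). ERBB2, which has no ligand of its own, was at -0.32 (adjusted p = 1.99e-05, edgeR) and -0.37 (adjusted p = 3.86e-06, edgeR). EGFR itself, the target of cetuximab, was at 272, 280 and 277 CPM in parental cells, 223, 239 and 228 CPM in R1 and 297, 292 and 268 CPM in R2. It fell by 16.7% in R1 (adjusted p = 4.41e-05, edgeR), while in R2 the log2 fold change was 0.05 (95% confidence interval -0.05 to 0.14, adjusted p = 0.484, edgeR). R2 was above R1 by 0.31 (adjusted p = 2.3e-05, edgeR). These values are RNA. At the protein level the study found total and surface ERBB2 and ERBB3 unaltered in both resistant lines, and total EGFR not downregulated. It also found that both lines still bound cetuximab. In the study, antibodies that blocked EGFR, ERBB2 and ERBB3 together did not lower the ATP levels of either resistant line. A part of the ligand RNA in resistance was not tested here. ERBB4 had 0 counts in all 9 libraries, which allows at most 0.160 to 0.218 CPM in a library.

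Most TIMP genes were higher in resistant cells. Among 5 inhibitor genes 4 were tested, and TIMP1, TIMP2 and TIMP3 were higher in both resistant lines. Over all genes tested 14.0% were higher in R1 and 12.3% in R2. TIMP3, which inhibits ADAM17 and ADAM10, was at 23.7, 26.5 and 24.3 CPM in parental cells, 84.3, 90.9 and 83.4 CPM in R1 and 41.5, 39.1 and 42.7 CPM in R2. It rose 3.48-fold and 1.66-fold (log2 fold change 1.80 ± 0.07, adjusted p = 5.21e-18, and 0.73 ± 0.07, adjusted p = 2.71e-09, edgeR), and the resistant lines differed by -1.07 (adjusted p = 1.77e-12, edgeR). TIMP3 had its highest level in R1 and an intermediate level in R2. The means of EREG, AREG, BTC, TIMP1 and TSPAN33, among others, had the same order.

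TIMP1, an inhibitor of ADAM10, was at 4.06 ± 0.43 CPM in parental cells, 25.1 ± 2.49 CPM in R1 and 19.0 ± 1.85 CPM in R2 (log2 fold changes 2.64 and 2.24, adjusted p = 4.56e-16 and 3.26e-14, edgeR). TIMP2, mainly an inhibitor of matrix metalloproteinases, was at 3.04 ± 0.88, 17.7 ± 1.54 and 22.4 ± 0.96 CPM (2.58 and 2.91, adjusted p = 1.72e-14 and 7.14e-16, edgeR), here with R2 the highest. TIMP4 stayed between 4.57 and 7.07 CPM in all libraries and did not pass. RECK had 1 count in all.

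Among the partners of the sheddases, 3 of 10 tested genes passed in R1 and 2 of 10 in R2, near the shares of 27.3% and 23.8% over all genes. Of 4 partners of ADAM17, FRMD8, which stabilises iRhoms, was 19.0% higher in R1 (adjusted p = 0.00268, edgeR), whereas the iRhom genes RHBDF1 and RHBDF2 and the sorting factor gene PACS2 did not pass in either line. Among 6 tetraspanins that escort ADAM10, TSPAN33 was higher (3.38 ± 0.46, 12.3 ± 2.82 and 8.42 ± 0.65 CPM) and TSPAN15 lower (76.4 ± 5.48, 53.5 ± 2.98 and 51.5 ± 2.64 CPM). Their log2 fold changes were 1.86 and 1.32 for TSPAN33 and -0.51 and -0.57 for TSPAN15, all with adjusted p of at most 5.32e-07 (edgeR). TSPAN33 fell by 0.55 in R2 against R1 (adjusted p = 0.00931, edgeR), and the other 4 tetraspanins did not pass.

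Of 4 proprotein convertases, PCSK5 was lower in both lines (-0.55 and -0.71 on the log2 scale, adjusted p = 5.85e-07 and 8.35e-09, edgeR). FURIN was 17.3% higher in R1 (adjusted p = 0.00584, edgeR) and at -0.01 in R2 (adjusted p = 0.954, edgeR). PCSK6 and PCSK7 did not pass.

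Other catalytically active ADAMs were represented by 7 genes, 5 of them tested. ADAM19 went from 2, 1 and 2 counts in the parental libraries to 37, 31 and 38 in R1 and 52, 61 and 63 in R2, or 2.20 ± 0.22 and 3.66 ± 0.52 CPM in the resistant lines (adjusted p = 1.06e-09 and 6.62e-12, edgeR). ADAM15 was higher in both lines (0.27 and 0.23, adjusted p = 5.68e-05 and 0.000652, edgeR), and ADAM9 in R2 (0.22, adjusted p = 0.00235, edgeR). ADAM8, with 9 to 35 counts per library, fell by 1.43 on the log2 scale in R1 (adjusted p = 0.000861, edgeR) and was at -0.95 in R2 (adjusted p = 0.0165, edgeR). ADAM28 had 12 counts in parental libraries and 3 in all resistant ones and did not pass. ADAM12, MMP3, MMP7, RHBDL2 and ADAM33 each had at most 1 count in all. CNIH1, CNIH4 and NKD2, which move ligand precursors to the cell surface, did not pass.

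**Figure D4:**
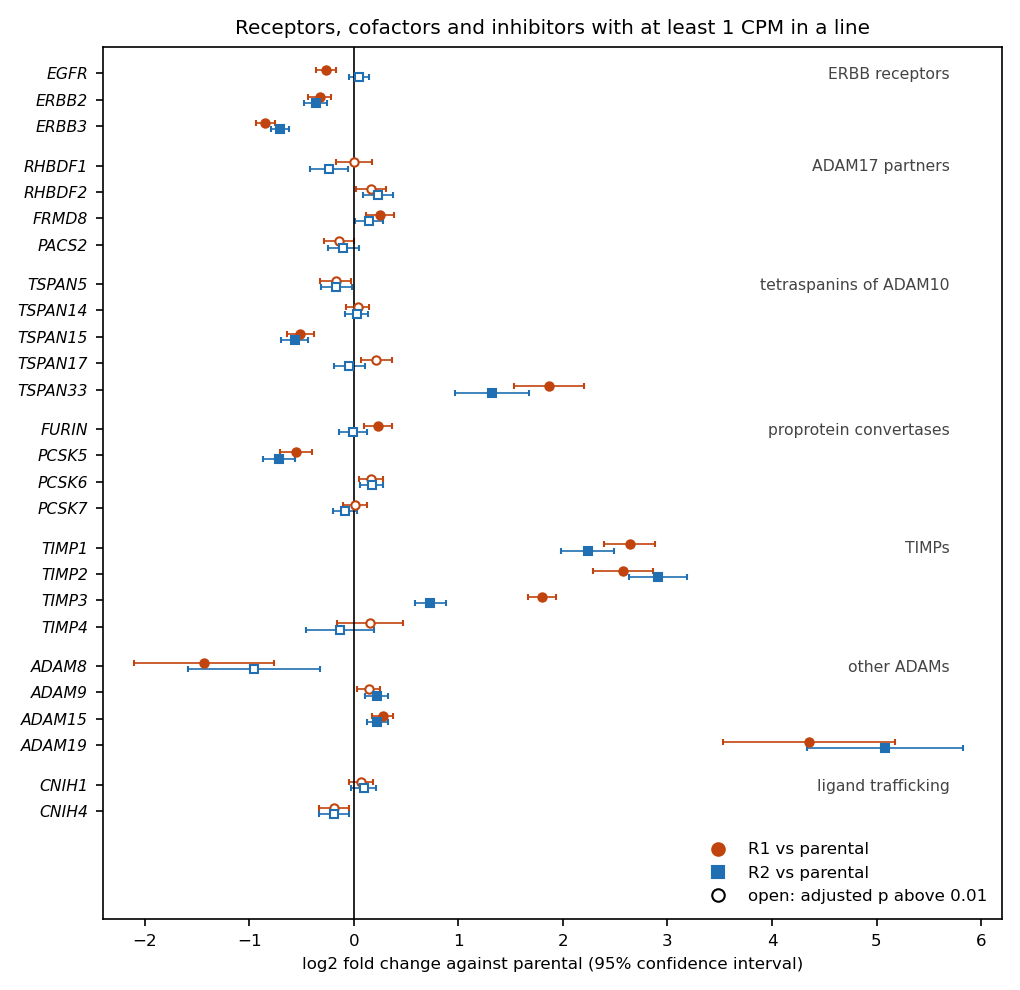
Log2 fold change against parental cells with its 95% confidence interval (horizontal axis) for the pathway genes with a mean of at least 1 CPM in a line, grouped by role; circles are R1, squares R2, and filled symbols have an adjusted p of at most 0.01. TIMP1, TIMP2, TIMP3 and TSPAN33 lie to the right at 0.73 to 2.91, ADAM19 at 4.35 and 5.08, and ERBB3 to the left at -0.84 and -0.71.

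The neighbourhood of AREG, EREG and BTC was examined next, within 500 kb of any of the 3 genes. It held 28 other genes, 15 of them tested. In R1 6 of these were higher and 0 lower, in R2 4 were higher and 2 lower, and between the resistant lines 1 was higher and 4 lower in R2. Over all genes tested 27.3%, 23.8% and 7.16% passed in these comparisons. The chemokine gene CXCL5 was at 28.4, 70.5 and 36.4 CPM in parental, R1 and R2 cells (log2 fold changes 1.31, adjusted p = 7.41e-14, and 0.35, adjusted p = 0.000855, edgeR). CXCL3 was at 0.27 in R1 (adjusted p = 0.000254, edgeR). In R2 CXCL1 was at -0.33 (adjusted p = 2.43e-06, edgeR) and CXCL2 at -0.57 (adjusted p = 8.17e-07, edgeR). CXCL1, CXCL2, CXCL3 and CXCL5 were all lower in R2 than in R1, by 0.43, 0.71, 0.33 and 0.95 on the log2 scale. AREG fell by 0.36 in the same comparison, less than CXCL5, CXCL2 and CXCL1. Against parental cells, in both resistant lines, the log2 fold changes of AREG and EREG were larger than that of every neighbour with at least 5 CPM in a line. MTHFD2L, on the far side of EPGN, was at 29.8, 26.8 and 31.5 CPM and did not pass.

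Of the remaining neighbours that passed against parental cells, PARM1 was at 0.18 in R1 (adjusted p = 0.000901, edgeR) and 0.43 in R2 (adjusted p = 2.62e-09, edgeR). The others were 3 long noncoding RNA genes with few counts. LOC105377276, whose annotated end lies 197 bases inside EREG on the same chromosome, had 5, 42 and 17 counts over the 3 libraries of parental, R1 and R2 cells. It passed in R1 (log2 fold change 3.03, adjusted p = 0.000203, edgeR) but not in R2 (1.74, adjusted p = 0.0616, edgeR). Whether its counts come from EREG transcripts was not tested. LOC107986229, between AREG and BTC, had 1, 15 and 21 counts, and LOC124900716, which overlaps it, had 0, 15 and 12.

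**Figure D5:**
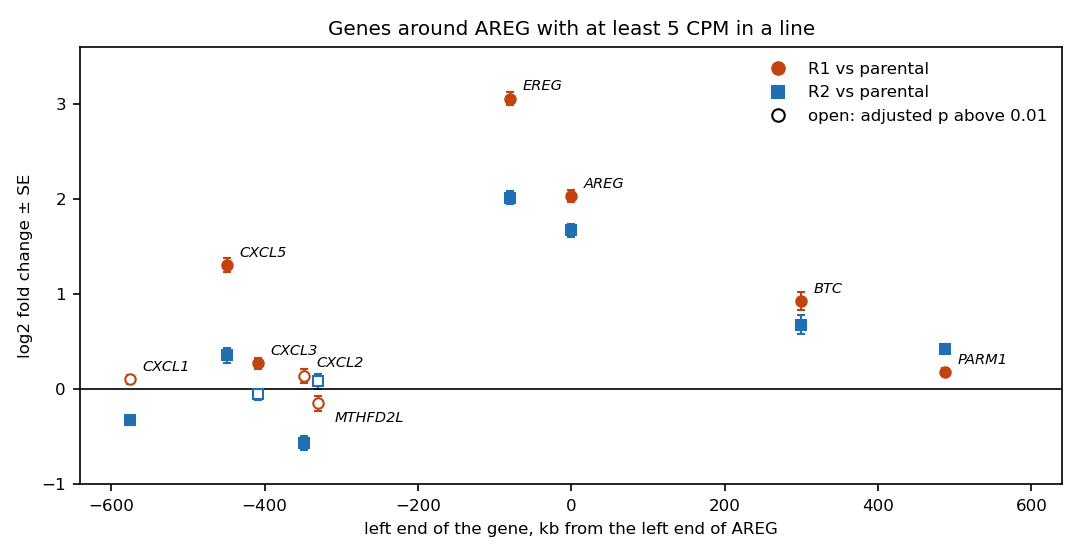
Log2 fold change ± SE against parental cells (vertical axis) for genes whose mean reached 5 CPM in a line, by the distance of their left end from that of AREG in kb (horizontal axis); circles are R1, squares R2, and filled symbols have an adjusted p of at most 0.01. EREG at 3.06 and 2.01 and AREG at 2.03 and 1.67 stand above the other genes, followed by CXCL5 at 1.31 and 0.35 and BTC at 0.93 and 0.68.

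Among 10334 genes with a mean of at least 5 CPM, those with the profile most like each called member over the 9 libraries were found by the root mean square difference of their centred log2 CPM. Nearest to AREG were CDC42EP3 (0.11), DUSP6 (0.11), which encodes a phosphatase of ERK, and VWA1 (0.13). For EREG they were GAL (0.17), LCN2 (0.20) and SLC2A3 (0.22). BTC was closest to PLAAT3, DCUN1D3 and SAV1 (0.06 to 0.08), TGFA to PICALM, IDH3A and CCNYL1 (0.04), ADAM10 to NUDT21, SRPK1 and VPS36 (0.02), and ADAM17 to CWC15, MRPS6 and ROBO1 (0.03 to 0.04). A smaller fold change gives a smaller difference by construction, so these values are not comparable between members. CDC42EP3, the nearest to AREG, was at 4.14 CPM in parental, 16.7 in R1 and 12.9 in R2 cells. DUSP6 was at 26.8 CPM in parental, 91.4 in R1 and 78.4 in R2 cells. A shared cause of such profiles was not tested.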

How the data were processed

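Poly(A) RNA of parental LIM1215 cells and of the resistant populations LIM1215-R1 and LIM1215-R2 was sequenced from both ends in stranded libraries, 3 per line. Alignment to hg38 by the authors used STAR, and htseq-count 0.9.1 in its reverse-strand setting gave the raw counts per gene that were deposited, without normalization. The gene annotation is not given in the sources used here. Samples were grouped by the line in their labels. The filter on low values required 10 counts or more summed over all 9 libraries, which 19102 genes met. In R 4.3.3, edgeR 4.0.16 was used for TMM scaling and for a quasi-likelihood model of all 9 libraries with the 3 lines as groups, and p-values were adjusted by the Benjamini-Hochberg method over these genes. A gene was called where its adjusted p was 0.01 or less, and a DEG, as in the study, changed in addition by 1.5 or more on the log2 scale. SEs were derived from the test statistic. Alternatives were other filters, DESeq2 1.42.0 size factors or total counts, the DESeq2 Wald test with and without lfcShrink, fits to 6 libraries, a block for the replicate number, leaving out single libraries, and an adjusted p of 0.05 as the limit.

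Depth ranged from 13737416 to 18725014 counts per library. Squared differences between the counts of replicates were 1.82 to 6.04 times what sampling gives (chi-square over degrees of freedom). No pair agreed within sampling noise. Positions and promoters are those of RefSeq GRCh38.p14, and transcript lengths those of GENCODE release 44. Each of the 7 members matched 1 RefSeq gene by symbol. With minimap2 2.31, no member had matching bases over at least 50% of its transcript in any of 430 non-primary sequences of hg38, which could divide its reads. The test was first tried on simulated counts. The members and gene lists were chosen with earlier results of these data known. Genes named are the members, the pathway lists, genes within 500 kb of AREG, EREG or BTC and, for each called member, the 3 genes of most similar profile.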

Additional observations from a re-analysis of the deposited data

Results flagged for a closer look

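For 2 members the change against parental cells differed between the resistant lines, tested directly as LIM1215-R2 against LIM1215-R1 with edgeR's quasi-likelihood test. EREG was at -1.04 on the log2 scale (adjusted p = 6.04e-13), with 130 to 145 CPM in LIM1215-R2 and 267 to 303 CPM in LIM1215-R1. AREG was at -0.36 (adjusted p = 7.24e-05), with 63.2 to 63.7 CPM against 76.8 to 84.9 CPM. All 3 libraries of LIM1215-R2 were below all 3 of LIM1215-R1 for both genes, as for 28.0% of all genes tested in either direction, and 7.16% of all genes passed the test between these lines. Each resistant line is 1 selected population, and a difference of culture or harvest between the lines cannot be told apart from one of selection.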

How the results depend on the processing

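The 21 log2 fold changes of the members were set beside those under 18 alternatives. Some of these could move little. The limit of 0.05 reuses the main fit and can lose no call, and lfcShrink keeps the adjusted p of the Wald test. A library left out of the line not compared acts only indirectly. Of the 378 values, 371 kept their direction and side of the threshold, 6 lost the call and 1 changed sign. That 1 was ADAM17 in R2 against R1, which was called under no alternative and lay between -0.079 and 0.0052 on leaving out 1 library, the highest value being that without LIM1215-R1 replicate 1 (adjusted p = 0.985, edgeR). The 6 lost calls were those of ADAM10 in LIM1215-R2 and ADAM17 in LIM1215-R1, each on leaving out 1 library. Of the 7 members 5 to 6 were called against parental cells in either line and 2 between the resistant lines, and the DEGs numbered 2, 2 and 0 under every alternative.

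For the other pathway genes, 17 in place of 11 were called in LIM1215-R2 against parental cells at an adjusted p of at most 0.05. Between the resistant lines 4 were called, 10 at an adjusted p of at most 0.05, 7 with the replicate number as a block and 2 to 7 on leaving out 1 library. Replicate numbers were not taken to pair these libraries. Of 9 same-numbered pairs 4 had a correlation of deviations over 0.1 (range -0.18 to 0.52), the highest being replicate 2 of LIM1215-parental and LIM1215-R1. The best match had the same number in 8 of 18 cases. Whether some libraries shared a handling step cannot be told from these values. With the block, 5841, 5197 and 2044 of all genes were called in the 3 comparisons, against 5222, 4554 and 1368 without it, and no call of a member changed. HBEGF, with 80 to 136 counts per library, had the widest intervals of the members. The cause of these changes was not tested.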
